A study of Mus musculus with 6 samples.

Results

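Runx1, Runx2 and Runx3, the 3 mammalian Runt-domain transcription factors, and Cbfb, their shared partner subunit, were examined in chromatin of mouse fetal myotubes. The 4 genes were chosen by name from the 22285 protein-coding genes of the annotation, and their models hold 10 of its 31246 annotated start sites once starts within 500 bp were merged. Myotubes are the multinucleated fibres that muscle precursors form by fusion. Here they came from limb muscle of wild-type C57BL/6 fetuses (E18.5), cultured as myoblasts and kept for 48 h in DMEM with 2% horse serum; the labels give 17 passages. Chromatin was precipitated with an antibody to Sox6 or to the C-terminal repeat of RNA polymerase II (Pol II), or kept as input DNA, with 2 libraries in each of the 3 groups. There was no untreated or mutant condition, so every comparison was of a precipitate with input. Nothing in the labels names the animals behind each library, so p-values cover these libraries and not the spread between animals. Those of the fits rest on a spread between libraries that was moderated over all features. Those of Fisher's exact and binomial tests cover counting error only. Sox6 libraries held 2985437 and 1468604 mapped reads, Pol II libraries 1538757 and 2762155, and input libraries 21973495 and 24249850.

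Runx proteins bind DNA through the Runt domain, which recognises a short element with the core CCACA, and binding is strengthened by Cbfb, which does not contact DNA itself. Runx1 is known for the formation of blood stem cells, Runx2 for bone formation, and Runx3 for T cells, sensory neurons and gut epithelium. In muscle, Runx1 is known to be induced in denervated fibres, where it limits wasting, and in proliferating myoblasts. Each Runx gene is transcribed from a distal and a proximal promoter far apart, which give proteins with different N-terminal ends. Sox6 is an HMG-box factor that in fetal muscle represses slow-fibre genes. The study asked which genes it occupies and whether these carry Pol II.

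Cells of the cultures were checked with fixed markers. Pol II stood above input over all 14 myotube marker genes, with a summed level of 472 and 504 RPKM (reads per kilobase of gene in 1000000 mapped reads) in the Pol II libraries against 9.57 and 10.4 in input. Of the other lists, Pol II was higher over 0 of 7 tested fibroblast genes, 0 of 7 tested blood genes, 0 of 4 endothelial genes and 1 of 7 tested bone and cartilage genes, which was Sox9, where 37.7% of all genes tested were higher. It was lower over 5, 3, 4 and 2 of them in the same order, where 21.9% of all genes were. With the background scaling described below, these lower counts were 4, 1, 2 and 2, and 1 blood gene, Csf1r, was called higher. Under that scaling 8840 of all 20178 genes tested were higher and 2710 lower. The summed Pol II level of fibroblast genes was 2.16 and 2.00 RPKM, that of blood genes 2.78 and 2.89, that of endothelial genes 0.867 and 0.786, and that of bone and cartilage genes 1.89 and 3.30, against input sums between 1.55 and 3.71. In these bulk cultures, fewer cells with an active gene and less Pol II per cell cannot be told apart.

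The sequences at the Sox6 sites nearest to the Runx genes are given first, because the results on common Sox6 peaks turn on them. The study's common list holds peaks found in both Sox6 experiments. One of its 1066 peaks lay within 20 kb of the 4 genes, beyond the 3′ end of Runx3. A further 3, nearest to Runx1 among protein-coding genes, lay upstream of it and outside that limit. Each line gives the 160 bases around the centre of such a peak on the plus strand of NCBI Build 37 (mm9), with every ACAAAG or ACAATG (the core bound by Sox factors), CAGCTG or CAGGTG (E-boxes, bound by myogenic regulators), CCACA (Runx) and GGAATG (Tead) in capitals on either strand.
Runx3, 13.8 kb beyond the gene end, chr4:134747661-134747820: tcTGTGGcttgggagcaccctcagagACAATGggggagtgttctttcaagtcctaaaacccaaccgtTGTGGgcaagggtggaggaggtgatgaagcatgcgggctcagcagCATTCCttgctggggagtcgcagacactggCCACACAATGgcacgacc
Runx1, 78.1 kb before the distal start, chr16:92904331-92904490: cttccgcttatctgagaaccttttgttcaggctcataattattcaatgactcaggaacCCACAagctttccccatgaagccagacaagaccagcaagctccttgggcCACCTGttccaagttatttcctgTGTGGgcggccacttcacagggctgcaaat
Runx1, 137.7 kb before the distal start, chr16:92963891-92964050: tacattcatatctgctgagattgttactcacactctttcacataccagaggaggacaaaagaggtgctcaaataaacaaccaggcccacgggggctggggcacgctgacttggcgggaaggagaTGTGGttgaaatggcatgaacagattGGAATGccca
Runx1, 281.3 kb before the distal start, chr16:93107521-93107680: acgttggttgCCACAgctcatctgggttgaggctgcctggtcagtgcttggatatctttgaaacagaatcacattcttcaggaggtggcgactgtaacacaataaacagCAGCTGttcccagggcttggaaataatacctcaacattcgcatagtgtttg

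The Runx3 window held ACAATG 2 times, at base 27 and base 147, and the CCACA core 3 times, at bases 3, 68 and 143. It also held GGAATG in reverse, at base 113, and no E-box. At its right end the CCACA of base 143 and the ACAATG of base 147 share 1 base. None of the 3 Runx1 windows held either Sox core. Each held CCACA, 2 of them an E-box and 1 GGAATG. Among windows of the same length around all 1066 common peaks, 53.2% held a Sox core, 58.6% an E-box, 61.3% CCACA and 24.9% GGAATG, so each of these matches was frequent among common peaks. A match is a run of letters and not a measured binding site.

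At the Runx3 peak, 36 and 25 Sox6 reads were counted in 450 bp in replicates 1 and 2, against 9 and 10 input reads, and no Pol II read in either library. Scaled to library size this was 12.1 and 17.0 for Sox6 and 0.410 and 0.412 for input, a ratio of 29.4 in replicate 1 and 41.3 in replicate 2. On the log2 scale the Sox6 enrichment was 5.06, with 43 of the 1066 common peaks above it. Common peaks were called from these same Sox6 reads. Sox6 ratios and ranks in their windows therefore describe the peaks and are no test of binding. Both single-replicate lists contained this peak, as the common list requires. With 0 Pol II reads in 2 libraries, for each of which a count of 0 allows up to 3 reads, Pol II was not called against input there (adjusted p = 0.156, quasi-Poisson fit with moderated dispersion), while at 45.4% of common peaks Pol II was higher. The nearest Pol II peaks were 134630 bp away in replicate 1 and 122750 bp away in replicate 2.

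At the Runx1 peak 78.1 kb before the distal start, Sox6 had 18 and 12 reads, Pol II 5 and 3, and input 5 and 16. At 137.7 kb the counts were 14 and 10 for Sox6, 5 and 11 for Pol II, and 9 and 16 for input. At 281.3 kb they were 17 and 9 for Sox6, 4 and 5 for Pol II, and 13 and 8 for input. Log2 ratios of Sox6 to input were 3.89, 3.32 and 3.68 in the same order, lower than at the Runx3 peak, and above 70.5%, 43.5% and 61.4% of the common peaks. Unlike the Runx3 peak, all 3 carried Pol II reads in both libraries. Pol II was higher than input at 137.7 kb (log2 ratio 2.78 ± 0.47 (SE), adjusted p = 0.00119) and at 281.3 kb (2.20 ± 0.58, adjusted p = 0.0171), and did not pass at 78.1 kb (2.03 ± 0.73, adjusted p = 0.0629). Without Pol II replicate 2 the peak at 137.7 kb no longer passed (adjusted p = 0.127), and without either Pol II library that at 281.3 kb did not (0.137 without replicate 1, 0.159 without replicate 2). The peak at 78.1 kb passed when repeated positions were counted once (adjusted p = 0.0325), with background scaling (0.0331) and with 1000 bp windows (0.00660). It also passed with the replicate number as a block (0.0311) and with limma on log2 values (0.000906). Limma added 0.5 reads before the log, which raises precipitate over input in windows with few reads. It called 623 common peaks, where the main fit called 484. The peak at 78.1 kb did not pass without Pol II replicate 1 (log2 ratio 1.26), Pol II replicate 2 (2.84) or input replicate 1 (1.5). Without input replicate 2 it did pass, with a log2 ratio of 3.03, so the call depended on which library was left out. At least 3 common peaks lay nearest to 32 of the 873 genes that any common peak was nearest to. These 3 peaks lie beyond the 20 kb limit and were described after their values had been seen. Input was the background when the authors called the peaks, so windows of common peaks were not chosen independently of input. The tests of Pol II against input in such windows share that limit. Over all common peaks the median log2 ratio of Pol II to input was 1.68, with 45.4% called higher.

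**Figure D1:**
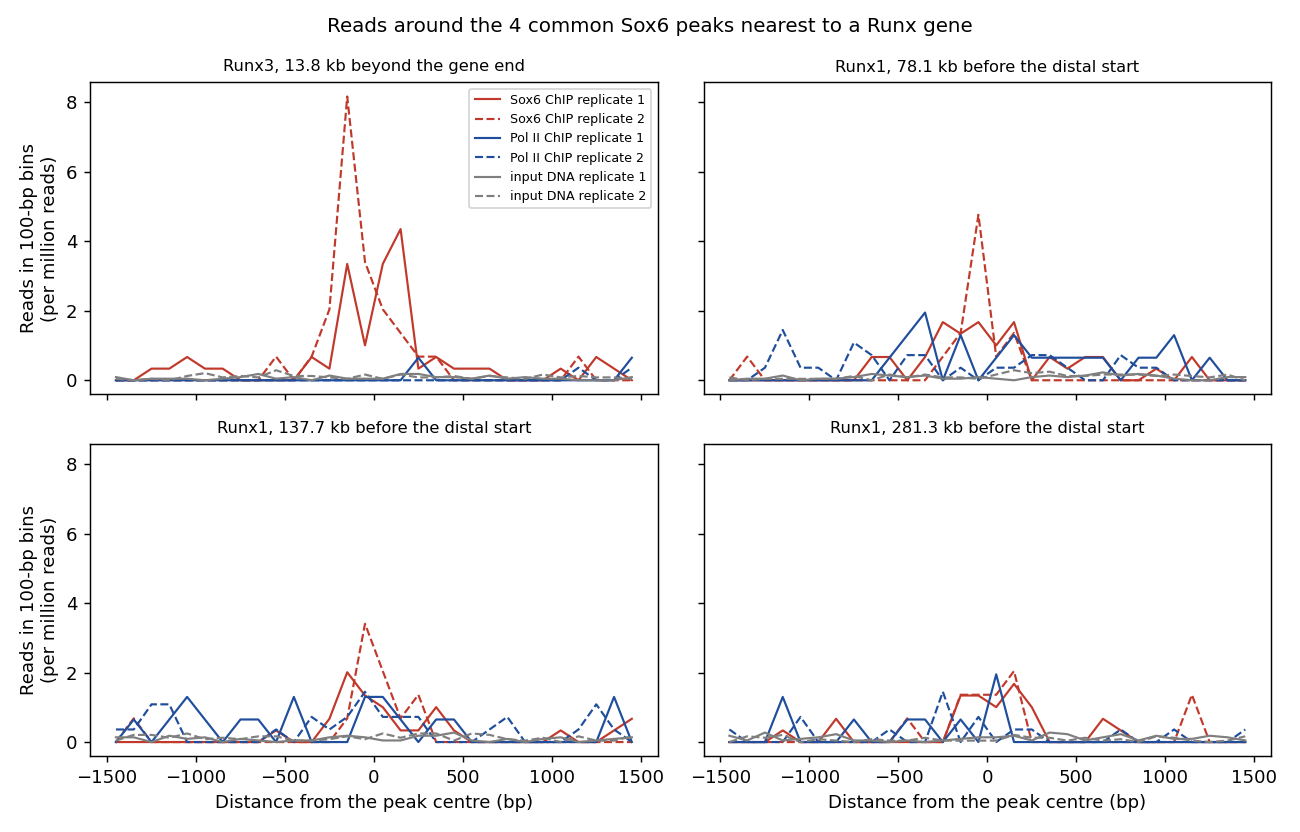
Reads per 1000000 mapped in 100-bp bins (y axis) against the distance from the peak centre in bp (x axis) for the 4 common Sox6 peaks nearest to Runx3 or Runx1, with solid lines for replicate 1 and dashed lines for replicate 2 of Sox6 ChIP (red), Pol II ChIP (blue) and input DNA (grey). The Runx3 peak is the highest and has no Pol II within its 450-bp window, and the Runx1 peaks are lower and stand among scattered Pol II reads.

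In addition, 3 sites inside the genes were called in 1 Sox6 replicate. Replicate 1 had a peak in an intron of Runx1, 83.5 kb after the second proximal start (chr16:92612732-92612771), and a peak in the first exon, whose centre lay 30 bp after the distal start (chr16:92826252-92826311). Replicate 2 had a peak in an intron of Runx2, 226.3 kb after the last of its proximal starts (chr17:44645292-44645391). No peak of any list lay in Cbfb or within 20 kb of it, and the closest common peak was 894.6 kb away. For comparison, 4.38% of all protein-coding genes had a common peak within 20 kb, 9.75% a replicate 1 peak and 6.70% a replicate 2 peak.

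Each single-replicate peak was then tested with the reads of the experiment that had not called it. In replicate 2 the Runx1 intron held 5 Sox6 reads and 16 input reads, a higher share of Sox6 than the library totals give (exact binomial test, two-sided, adjusted p = 0.0103). The first-exon peak held 2 Sox6 and 11 input reads there and did not pass (exact binomial test, adjusted p = 0.202). In replicate 1 the Runx2 intron held 3 Sox6 and 9 input reads and did not pass (exact binomial test, adjusted p = 0.182). So 1 of these 3 peaks passed. Of all peaks, 67.0% of replicate 1 and 84.4% of replicate 2 passed the same test, but these shares include peaks of the common list, and among peaks with no common peak within 450 bp, a comparison added after seeing the data, they were 50.6% and 62.9%. The numbers of reads at these sites are small, and a difference of a few reads was not detectable.

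The Runx2 site overlapped a Pol II peak of each Pol II experiment. In 450 bp around it Sox6 had 3 and 4 reads, Pol II 5 and 14, and input 9 and 9. Its 160 bases around the centre are shown because they hold 3 E-boxes, capitals marking the same motifs as above.
Runx2 intron, chr17:44645261-44645420: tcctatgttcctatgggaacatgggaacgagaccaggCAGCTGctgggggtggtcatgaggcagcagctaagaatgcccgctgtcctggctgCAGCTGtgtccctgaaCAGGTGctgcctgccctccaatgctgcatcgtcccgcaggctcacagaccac
The E-boxes begin at bases 38, 93 and 109, and the window holds no Sox core, no CCACA and no GGAATG. These 2 Pol II peaks were the only ones in Runx2. The Runx2 site did not pass the test with the other replicate. The 160 bases around the Runx1 intron peak, which did pass, hold no Sox core, no E-box, no CCACA and no GGAATG.

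Over whole genes, Pol II levels differed among the 4 members. Runx1 carried 5.29 and 5.55 RPKM in Pol II replicates 1 and 2, against 0.704 and 0.721 in input. Cbfb carried 1.17 and 1.54 RPKM of Pol II against 0.661 and 0.644 of input. Runx2 had 0.455 and 0.436 RPKM of Pol II against 0.622 and 0.587 of input. Runx3 had 0.227 and 0.290 RPKM of Pol II against 0.422 and 0.481 of input. The order Runx1, Cbfb, Runx2, Runx3 held in both Pol II libraries, but input had the same order in both of its libraries. The order alone is therefore no measure of Pol II, and a difference between Runx2 and Runx3 was not tested. Both Pol II values of Runx1 and of Cbfb lay above both input values, and those of Runx2 and Runx3 lay below them. How many of all genes show such a separation was not counted.

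Relative to input, Pol II was 7.65-fold higher over Runx1 (log2 ratio 2.94 ± 0.07 (SE), adjusted p = 8.53e-15) and 2.15-fold higher over Cbfb (1.11 ± 0.13, adjusted p = 4.26e-06), with 37.7% of the 20178 genes tested called higher. It was lower over Runx2 (log2 ratio -0.45 ± 0.15, adjusted p = 0.0125) and over Runx3 (-0.76 ± 0.25, adjusted p = 0.00922), with 21.9% of genes called lower. The lower calls depended on the scaling. When libraries were scaled to reads more than 1 kb from every deposited peak (background scaling) in place of all reads, the median log2 ratio of all genes moved up by 0.36, the split of all genes from 7615 higher and 4429 lower to 8840 higher and 2710 lower, and neither Runx2 (-0.09, adjusted p = 0.575) nor Runx3 (-0.40, adjusted p = 0.176) passed. Runx1 and Cbfb passed under both scalings. The calls for Runx2 and Runx3 were also lost without Pol II replicate 1 (log2 ratios -0.47 and -0.64) and without Pol II replicate 2 (-0.41 and -1.0), although the ratios stayed negative.

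**Figure D2:**
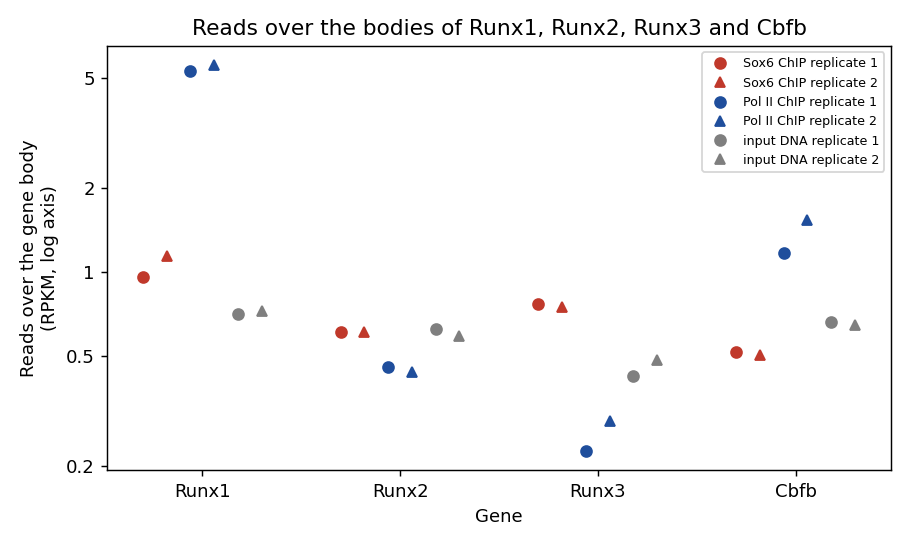
Reads over the gene body in RPKM (y axis, log scale) for Runx1, Runx2, Runx3 and Cbfb (x axis), 1 point for each library of Sox6 ChIP (red), Pol II ChIP (blue) and input DNA (grey), circles for replicate 1 and triangles for replicate 2. Both Pol II points of Runx1, at 5.29 and 5.55, stand far above input, those of Cbfb stand above it, and those of Runx2 and Runx3 below it.

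Runx1 was thus one of the more heavily occupied genes of these cultures. Its mean Pol II level ranked 561 of 22285 genes, above 97.5% of them. Cbfb stood above 78.4%, Runx2 above 51.7% and Runx3 above 40.2%, in ranks of Pol II reads not set against input. Actb, the beta-actin gene taken as a reference, carried 26.4 and 35.8 RPKM, of which Runx1 reached 20.03% in replicate 1 and 15.5% in replicate 2, and Cbfb 4.42% and 4.30%. Runx1 spans 224.6 kb, and among the 948 tested genes of 200 kb or more, whose median log2 ratio was -0.97, it ranked 6. That ranking was added after the values had been seen.

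**Figure D3:**
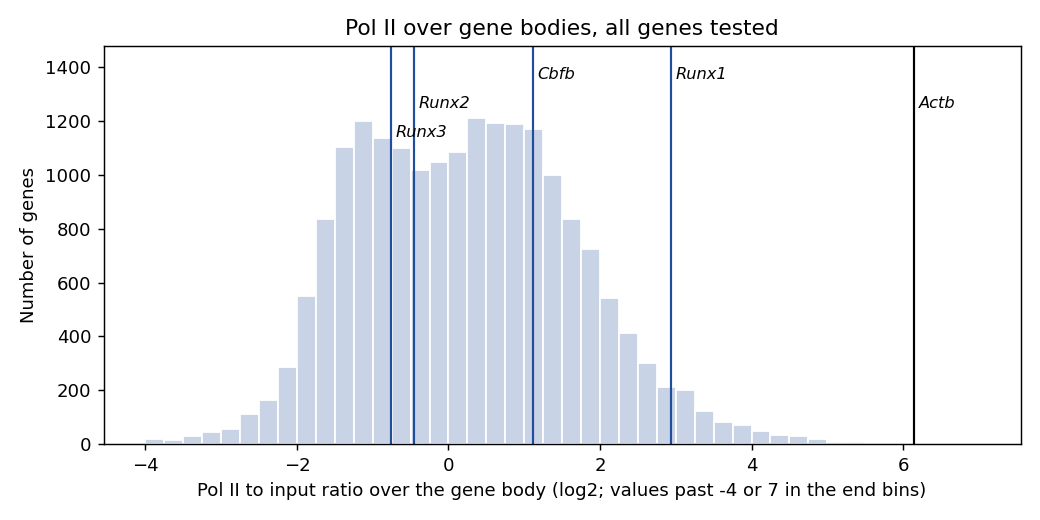
Number of genes (y axis) by the log2 Pol II to input ratio over the gene body (x axis) for all genes tested, with vertical lines at Runx3 (-0.76), Runx2 (-0.45), Cbfb (1.11), Runx1 (2.94) and the reference Actb (6.15). Runx1 lies in the upper tail, Runx3 on the right side of the lower hump and Runx2 in the dip between the humps.

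The deposited Pol II peaks gave the same order for Runx1 and a different picture for Cbfb. Runx1 contained 58 Pol II peaks in replicate 1 and 99 in replicate 2, and 13 and 11 genes had more. These peaks covered 8.16% and 20.1% of the gene, and the reads inside them came to 1.001 and 1.82 RPKM. Runx2 contained 1 peak in each replicate, and Runx3 and Cbfb contained none. The only Pol II peaks within 20 kb of Cbfb lay 6.9 and 7.0 kb beyond its end, at the start of the neighbouring gene D230025D16Rik. Cbfb therefore counts as free of Pol II by peaks, although its reads exceeded input over the body in both libraries.

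At start sites, Pol II was again highest on Runx1, whose distal start is separated from the first proximal start by 128.7 kb and whose second proximal start lies a further 1.3 kb downstream. Within 500 bp of the distal start there were 9 and 28 Pol II reads against 16 and 23 input reads. The first proximal start had 19 and 28 Pol II reads against 13 and 7 of input. The second proximal start had 18 and 43 Pol II reads against 15 and 15 of input. Per 1000000 mapped reads, the 6 Pol II values lay between 5.85 and 15.6, and all 6 input values at or below 0.949.

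Pol II was 10.2-fold higher than input at the distal start (log2 ratio 3.35 ± 0.37 (SE), adjusted p = 6.35e-13), 25.3-fold at the first proximal start (4.66 ± 0.43, adjusted p = 3.46e-21) and 21.8-fold at the second (4.45 ± 0.37, adjusted p = 4.48e-24). Of all 25802 start windows tested, 34.5% were called higher. The ratio was smaller at the distal start than at either proximal start in both replicates, with odds ratios between 0.304 and 0.469. After adjustment over the 18 comparisons of 9 pairs of starts in the 3 Runx genes, which leave out the first and second proximal starts of Runx2 since their windows overlap (938 bp apart), none passed (two-sided Fisher's exact tests, smallest adjusted p = 0.0562), although 3 had an unadjusted p under 0.05. The smallest of these, of the Runx2 distal start against the last of its proximal starts, came from replicate 2 only. With 1000 bp to either side of a start 1 comparison passed, and with both inputs pooled 2 passed.

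The 250 bases before the distal and the first proximal start are printed 5′ to 3′ on the minus strand, on which Runx1 is transcribed, to show how unlike the promoters are. Capitals mark the same motifs as above, on either strand.
Runx1 distal, chr16:92826312-92826561: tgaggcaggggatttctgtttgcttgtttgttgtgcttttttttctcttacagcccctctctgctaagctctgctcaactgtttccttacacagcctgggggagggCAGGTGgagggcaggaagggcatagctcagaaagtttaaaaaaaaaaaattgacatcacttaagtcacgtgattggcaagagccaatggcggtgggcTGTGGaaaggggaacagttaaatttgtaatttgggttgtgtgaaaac
Runx1 proximal, chr16:92697574-92697823: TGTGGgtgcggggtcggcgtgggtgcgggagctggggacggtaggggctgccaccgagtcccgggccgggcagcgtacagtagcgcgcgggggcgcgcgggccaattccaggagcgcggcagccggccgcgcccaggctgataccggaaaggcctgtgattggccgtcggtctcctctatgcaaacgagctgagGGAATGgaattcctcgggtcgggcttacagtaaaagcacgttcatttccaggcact
The distal sequence had 45.6% G and C and 2 CpG dinucleotides, the proximal one 67.2% and 27, and the medians over such sequences of all starts were 52.8% and 6. The distal sequence held 1 E-box (CAGGTG at base 107) and 1 CCACA core in reverse (base 204). The proximal one held the reversed CCACA core at base 1 and GGAATG at base 195. Of 31240 such sequences, 27.8% held an E-box, 48.3% CCACA, 11.7% GGAATG and 24.3% a Sox core, and neither promoter held a Sox core.

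**Figure D4:**
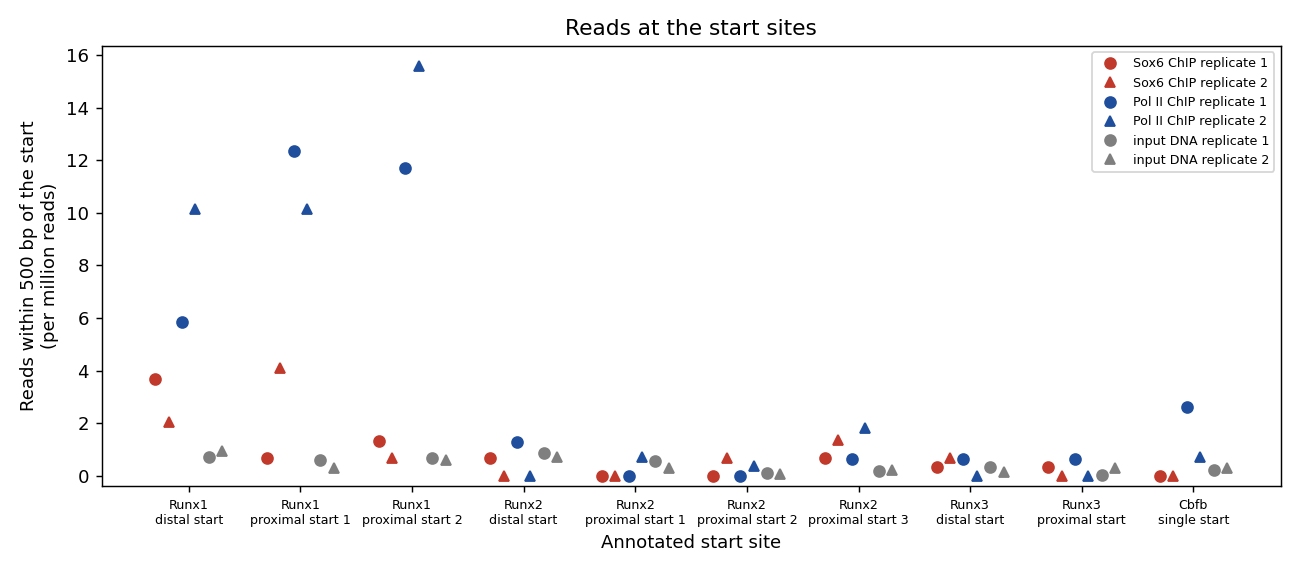
Reads per 1000000 mapped within 500 bp of each start (y axis) at the 10 start sites of Runx1, Runx2, Runx3 and Cbfb (x axis), 1 point per library of Sox6 ChIP (red), Pol II ChIP (blue) and input DNA (grey), circles for replicate 1 and triangles for replicate 2. The 6 Pol II points of Runx1 lie between 5.85 and 15.6, and no Pol II point of the other genes exceeds 2.60.

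Pol II was also compared between longer segments of Runx1. They hold more reads than the start windows but measure Pol II along the gene and not at its starts. Between the distal and the first proximal start (128.7 kb), Pol II stood at 4.23 and 4.57 RPKM and input at 0.712 and 0.731. From the first proximal start to the gene end (95.9 kb), Pol II stood at 6.72 and 6.86 RPKM and input at 0.694 and 0.708. The ratio of Pol II to input rose from 5.94 to 9.68 in replicate 1 and from 6.25 to 9.69 in replicate 2, with odds ratios of 1.63 and 1.55 (Fisher's exact tests, two-sided, counting error only, with adjusted p = 1.52e-16 and 6.97e-20 over 6 tests). The upstream segment thus held a lower level of Pol II that still exceeded input in both libraries. This comparison of segments was added after the data had been seen.

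Along the gene, the 5-kb bin that follows the distal start held 10.7 and 10.3 RPKM of Pol II. The bin before the start, centred at -2.5 kb, held 0.780 and 2.61 RPKM, with input at 0.865 and 1.01, and the one before that, centred at -7.5 kb, held 0.260 and 0.0724. Beyond the first bin the level fell to 3.90 and 4.34 RPKM in the bin centred at 12.5 kb. The bin centred at 127.5 kb, which contains the first proximal start, held 8.32 and 7.31 RPKM, while the one before it held 3.77 and 4.42. In both libraries the bin centred at 127.5 kb held less than the bin that follows the distal start. These bins are not alike, since most of the former lies before the first proximal start, at 128.7 kb. They therefore do not compare Pol II at the starts. In the 25 kb beyond the gene end Pol II stood at 1.14 and 0.956 RPKM, with input at 0.615 and 0.670. In the 25 kb before the distal start it stood at 0.286 and 0.666 RPKM, with input at 0.694 and 0.698.

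**Figure D5:**
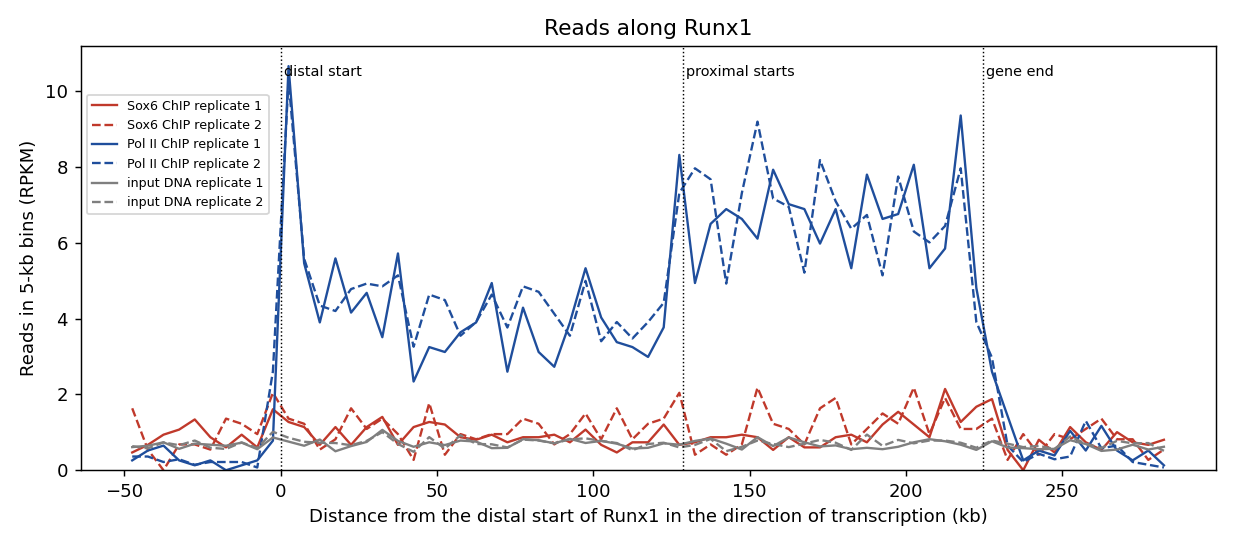
Reads in 5-kb bins in RPKM (y axis) against the distance from the distal start of Runx1 in kb (x axis), solid lines for replicate 1 and dashed lines for replicate 2 of Sox6 ChIP (red), Pol II ChIP (blue) and input DNA (grey), with dotted lines at the distal start, the proximal starts and the gene end. Pol II covers the whole gene, with a peak of 10.7 and 10.3 RPKM in the first bin and a higher level after the proximal starts, and falls towards input beyond the gene end.

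For Runx2 and Runx3 such a difference between segments did not pass in both libraries. In Runx2, whose distal end overlaps Supt3h (a subunit of histone acetyltransferase complexes, transcribed in the opposite direction), the overlap carried 0.570 and 0.510 RPKM of Pol II and 0.692 and 0.611 of input. Reads carry no mark of the gene they come from, so the overlap cannot be divided between the genes. The stretch between the distal and proximal starts outside it carried 0.193 and 0.340 RPKM of Pol II, and the part after the proximal start 0.481 and 0.441. The ratio to input differed between the latter in replicate 1 (odds ratio 2.25, Fisher's exact test, adjusted p = 0.0102) and did not pass in replicate 2 (1.24, Fisher's exact test, adjusted p = 0.293). Runx3 had 0.225 and 0.341 RPKM between its starts and 0.229 and 0.227 after the proximal one, with odds ratios of 1.11 and 0.656 (Fisher's exact test, adjusted p = 0.822 and 0.293).

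At the starts of the other genes the counts were small. The third proximal start of Runx2 had 1 and 5 Pol II reads against 4 and 5 of input, which passed (log2 ratio 2.84 ± 0.85, adjusted p = 0.0117) but not without Pol II replicate 2 (1.74, adjusted p = 0.599) nor with a window of 1000 bp to either side (0.0584). The Cbfb start had 4 and 2 Pol II reads against 5 and 7 of input, which passed (2.43 ± 0.82, adjusted p = 0.0291) but not without Pol II replicate 1 (1.48, adjusted p = 0.496) nor with the wider window (0.0525) nor with the replicate number as a block (0.0531). The ratio was 3.32 without Pol II replicate 2 (adjusted p = 0.0355). The distal start of Runx2 had 2 and 0 Pol II reads against 19 and 17 of input, its first proximal start 0 and 2 against 12 and 7, and the distal start of Runx3 1 and 0 against 7 and 4. None of these 3 was called. The second proximal start of Runx2 and the proximal start of Runx3 held fewer than 10 reads in the 4 libraries and were not tested. So 5 of the 8 tested starts were called, 3 of them on Runx1, where 34.5% of all start windows were, and the other 2 calls rest on 6 Pol II reads each.

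Sox6 was not called above input at any start of the 4 genes, where 0.224% of all start windows were. The distal start of Runx1, which includes the first-exon peak of replicate 1, came closest, with 11 and 3 Sox6 reads (log2 ratio 1.90 ± 0.51, adjusted p = 0.272). With limma on log2 values this start passed (adjusted p = 0.0246), but limma called 557 start windows, where the main fit called 58. Limma added 0.5 reads before the log, which raises precipitate over input in windows with few reads. The first proximal start had 2 and 6 Sox6 reads (2.05 ± 0.74, adjusted p = 0.728) and the ratio of that start was 3.24 without Sox6 replicate 1 and 0.63 without Sox6 replicate 2. The second proximal start had 4 and 1 (0.79 ± 0.79, adjusted p = 0.896). At the starts of Runx2, Runx3 and Cbfb each Sox6 library had between 0 and 2 reads, at which depth a difference was not detectable.

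Over gene bodies the Sox6 signal was weak in all 4 genes. Runx3 had 0.765 and 0.748 RPKM of Sox6 against 0.422 and 0.481 of input. Runx1 had 0.960 and 1.14 against 0.704 and 0.721. In both genes the Sox6 values lay above both input values, a separation that was not counted over all genes. Runx2 had 0.608 and 0.609 RPKM against 0.622 and 0.587, and Cbfb 0.517 and 0.504 against 0.661 and 0.644. Runx3 passed narrowly (log2 ratio 0.75 ± 0.16, adjusted p = 0.0450), and Runx1 narrowly did not (0.52 ± 0.12, adjusted p = 0.0513), with 1.32% of all genes called higher. Neither Cbfb (-0.35 ± 0.19, adjusted p = 0.353) nor Runx2 (0.01 ± 0.13, adjusted p = 0.977) was called. The common Sox6 peak of Runx3 lies outside the gene body and adds no read to it. The 25 kb before the distal start of Runx1 held 0.92 and 1.23 RPKM of Sox6, with ratios to input of 1.33 and 1.76. In the 25 kb beyond the end of Runx1 these ratios were 1.28 and 1.14. Higher Sox6 was thus not confined to the body of Runx1, and these flanks were not tested. Runx3 did not pass with repeated positions counted once (log2 ratio 0.72, adjusted p = 0.0507), nor without Sox6 replicate 1 (log2 ratio 0.72) or 2 (0.76). Runx1 passed with repeated positions counted once (adjusted p = 0.0319), with background scaling (0.0227), with limma on log2 values (0.0202) and with the replicate number as a block (3.45e-10). It did not pass without a read filter (0.0552) or without the first 1 kb of the body (0.0512). It also did not pass without Sox6 replicate 1 or 2 (log2 ratios 0.68 and 0.43). Its ratio was 0.5 and 0.54 without input replicate 1 or 2. Leaving out input replicate 1 called unchanged genes in simulated data, and leaving out input replicate 2 was not simulated. Runx3 passed under the block (2.22e-06). The block called 2682 of 20240 genes higher, limma 1116 and background scaling 488, where the main fit called 268. A pass under the block was thus far more frequent among all genes than in the main fit.

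Other genes of the Runx pathway were read from lists of known partners, modifiers and targets, whose counts stand against 37.7% of all genes called higher and 21.9% called lower. Counts with background scaling stand against 8840 higher and 2710 lower of all 20178 genes tested, so more genes of any list are called higher there. Of 13 corepressors that Runx proteins recruit, Pol II was higher than input over the bodies of 8 and lower over 0, with a median log2 ratio of 0.66 against 0.10 over all genes tested. The largest was Tle3, a Groucho-type corepressor (1.82 and 2.03 RPKM of Pol II against 0.452 and 0.504 of input, log2 ratio 2.03 ± 0.12, adjusted p = 6.57e-10). Cbfa2t3, of the ETO family, followed (1.92 ± 0.10), then the deacetylase gene Hdac1 (1.17 ± 0.16), and the smallest called was Cbfa2t2 (0.58 ± 0.12). None of the 13 had a common Sox6 peak within 20 kb, where 4.38% of all genes had one. With background scaling 11 were higher.

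Among 25 coactivators and DNA-binding partners, 13 were higher and 5 lower, with a median of 0.56. The count of lower genes is close to the 21.9% of all genes. Jun and Fos, whose products form the AP-1 factor, were the highest, Jun with 10.6 and 11.6 RPKM of Pol II against 0.685 and 0.698 of input (log2 ratio 4.02 ± 0.21, adjusted p = 5.71e-11) and Fos with 3.84 and 3.85 against 0.498 and 0.451 (3.02 ± 0.28, adjusted p = 3.46e-07). Prmt1, an arginine methyltransferase that modifies Runx1, came next (2.76 ± 0.17). Dlx5, a homeobox factor of bone, had no Pol II read against 23 and 31 of input and was called lower (adjusted p = 0.0230). With background scaling 14 of the list were higher and 3 lower. Smad3 and Ets1 each had 1 common Sox6 peak within 20 kb, where 4.38% of all genes had a peak, so the count sets the list not apart. Both were called higher, as were 13 of the 25. Smad3, a transducer of TGF-beta signals, had 3.45 and 4.06 RPKM of Pol II (2.42 ± 0.09), and Ets1, which binds DNA cooperatively with Runx1, 0.818 and 0.786 (0.56 ± 0.12).

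Of 7 genes whose products change Runx protein stability or activity, 4 were higher and 0 lower, with a median of 0.48, where 37.7% of all genes were higher, and with background scaling 6 were higher. With 7 genes these counts set nothing apart from all genes. Stub1, a ubiquitin ligase, had 7.87 and 5.05 RPKM of Pol II against 0.568 and 0.696 of input (log2 ratio 3.25 ± 0.29). Pim1, a kinase gene, stood at 1.89 ± 0.31, and the ubiquitin ligase genes Smurf1 and Smurf2 at 0.60 ± 0.12 and 0.48 ± 0.13.

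Of 9 tested of 11 skeletal targets of Runx2, 0 were higher and 3 lower, with a median of -1.10, where 37.7% of all genes were higher and 21.9% lower. The 3 were Alpl (-1.11 ± 0.28, adjusted p = 0.000883), Tnfrsf11b (-1.41 ± 0.40, adjusted p = 0.00179) and Mmp13 (-1.69 ± 0.74, adjusted p = 0.0246), and with background scaling Mmp13 no longer passed (adjusted p = 0.0907). Of 10 blood targets of Runx1 and Runx3, 1 was higher and 4 lower, with a median of -0.57, or -0.54 with Il3 at the bound that a count of 0 allows, beside the same shares of all genes. The one higher was Zbtb7b, a regulator of CD4 T cells, with 1.44 and 1.39 RPKM of Pol II against 0.351 and 0.477 of input (1.76 ± 0.21, adjusted p = 7.33e-06). Il3 had no Pol II read against 17 and 25 of input (adjusted p = 0.0428), and the integrin genes Itgal (-0.94 ± 0.31, adjusted p = 0.00831) and Itgae (-0.97 ± 0.27, adjusted p = 0.00238) were called lower. With background scaling 0 of the 10 were lower and 2 were higher, Zbtb7b and Csf1r. Neither target list had a common Sox6 peak within 20 kb, where 4.38% of all genes had one.

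By levels over the gene body in the 4 ChIP libraries, the genes nearest to Runx1 were Sync and Actn3, with 5.40 and 5.29 and with 5.41 and 5.81 RPKM of Pol II. Both encode proteins of the muscle sarcomere or its links. Nearest to Cbfb were Ppm1a and Atf6b, nearest to Runx2 were Lace1 and Slc38a4, and nearest to Runx3 were Adra1d and Kbtbd11. Distances in log2 RPKM over these 4 libraries ranged from 0.0789 to 0.234, and the largest were those of Runx3, which had the fewest Pol II reads.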

How the data were processed

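Reads were aligned by the authors with Bowtie 0.12.5 to NCBI Build 37 (mm9), and uniquely mapped reads were deposited as positions, with no counts. The authors called peaks separately in each Sox6 and Pol II experiment with SISSRs, with input as background, and found the Sox6 peaks common to both replicates. Reads beyond the first at the same position and strand made up 2.96% to 7.88% of each library and were kept.

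From these files, 5′ ends of reads were counted within 500 bp of each GENCODE start of the same build, over gene bodies and in 450 bp around peak centres. Precipitate was compared with input across all features with at least 10 reads (all common peaks) by a quasi-Poisson fit with library size as offset, dispersion moderated by limma 3.58.1 (R 4.3.3) and never below 1, and Benjamini-Hochberg adjustment at 0.05. The prior was estimated on features with fitted means of at least 2 reads. This form was chosen on simulated data after results of a more conservative form had been seen. Fisher's exact and exact binomial tests (scipy 1.17.1) cover counting error only. The members and gene lists were chosen with earlier results of these data known. Named are all members and starts, the genes nearest to their Sox6 peaks, from each list the 3 genes with the largest and the 1 with the smallest ratio among those called plus any with a common Sox6 peak within 20 kb, the 2 genes nearest in level to each member, and Actb. Sox9, Csf1r, Supt3h and D230025D16Rik fall outside this rule and were named after values had been seen. The score column of the peak files was not used.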

Additional observations from a re-analysis of the deposited data

How the results depend on the processing

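Pol II over the bodies of Runx1 and Cbfb and at the 3 Runx1 starts stayed above input and past the threshold under every alternative run for them. Counts over all features moved more. Pol II was higher at 8908 start windows and at 5059 to 8974 with 1 library left out, over 7615 gene bodies (5252 to 8178), and at 484 common peaks (112 to 481). Sox6 was higher at 58 start windows (39 to 86 with 1 library left out), 557 with limma, 13 with repeated positions once, 29 with 250 bp windows, 177 with 1000 bp windows and 113 with all transcripts. Sox6 was higher over 268 bodies, 1116 with limma and 488 with background scaling, and 38 to 2880 with 1 library left out. The lone remaining library was assumed to vary like the others, and leaving out input replicate 1 called unchanged genes in simulated data. Comparisons of alternative starts called 0 of 18, 1 with 1000 bp windows and 2 with pooled inputs. Comparisons of segments, a different quantity added after seeing the data, called 3 of 6.

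Whether input and precipitate of the same number come from 1 experiment is not given in the labels, and the block was kept as an alternative. The paper reports that peak calling used an input file belonging to each ChIP experiment, without giving the numbering. Deviations of same-numbered libraries over gene bodies correlated with those of input at -0.00337 for Pol II and 0.219 for Sox6. With the replicate number as a block, 0 start windows and 2682 bodies were called higher for Sox6, the Cbfb start did not pass (adjusted p = 0.0531), and Runx1 passed for Sox6 over the body (adjusted p = 3.45e-10). The Sox6 ratio of Runx2, 0.01, was -0.0034 under the block and ranged from -0.03 to 0.05 with 1 library left out. Few reads per start limit what can be detected at Runx2, Runx3 and Cbfb.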
